A study of Mus musculus with 20 samples.

Results

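The genes described here build the osteoclast, the multinucleated cell that resorbs bone, and the acid-secreting machinery it works with. They were taken from a list of 35 symbols chosen for these roles, with earlier results of these data known. Every probe set annotated to them was used if it was called present on 5 or more of 20 arrays. Of the 35 genes, 34 had a probe set named for them and 33 passed, with 62 of their 75 probe sets, among 27141 probe sets and 12430 genes tested on the whole array. Siglec15, a receptor of osteoclast precursors, had no probe set named for it and is not analysed here, and both probe sets of Trem2, a receptor that signals through Tyrobp, were called present on 0 of 20 arrays. Where a gene had several probe sets, the brightest over all 20 arrays stands for it, and others are given beside it for some genes. On the deposited scale a signal is in arbitrary fluorescence units, and a log2 fold change is taken on log2 of the signal plus 16.

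RNA came from femoral shafts of 5-week-old C57BL/6J mice, measured on Affymetrix arrays. The 4 groups of 5 arrays were wild-type males, hemizygous Hyp males (Hyp/Y), wild-type females and heterozygous Hyp females (Hyp/+), all littermates. Hyp is a mutation of the X-linked endopeptidase gene Phex, and a heterozygous female keeps 1 normal copy. Each array held pooled RNA of 2 mice (40 in all), so it averages them, and littermates were matched within 5 numbered series of 4 arrays, so that Hyp can be set against normal in 10 same-series pairs, 5 of each sex. Between 49.3% and 56.9% of probe sets were called present per array. The shafts had been cut free of their ends and flushed with saline, and marker genes of marrow cells were still detected. Phex itself was lower in 10 of 10 pairs (log2 -4.45 ± 0.16 SE, limma adjusted p = 3.03e-10; -6.28 in males and -2.61 in females). In such whole tissue, fewer cells of a type and less RNA per cell cannot be told apart.

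Osteoclasts form when monocyte precursors, kept alive by signals through Csf1r, meet RANK ligand, which signals through the receptor Tnfrsf11a and the adaptor Traf6. Immunoreceptors such as Oscar, with their adaptors, add a second signal, and the transcription factor Nfatc1, helped by Mitf and others, switches on the genes of fusion and resorption. The mature cell seals itself to bone through integrins and Src, pumps protons and chloride into the space beneath it, and digests the exposed collagen with cathepsin K. Mitf and Tfe3, related factors of this programme, are known to bind the letters CATGTG and CACGTG.

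Promoter stretches of 300 bases (250 before to 50 after an annotated start) were taken from RefSeq on GRCm38.p6, where 21 of the 35 genes had at least 1, in 34 stretches. The stretches of 4 genes are printed 5′ to 3′ on the gene's strand: those of Ctsk, Acp5 and Oscar, the marker genes of the list, and of Clcn7, the acid secretion gene whose stretch holds CACGTG. Capitals mark CATGTG or CACGTG on either strand, so that CATGTG on the other strand reads CACATG. The stretches lie at chr3:95498960-95499259, plus strand for Ctsk, at chr9:22130549-22130848, minus strand for Acp5 (1 of 3 starts listed, the one with a match), at chr7:3616108-3616407, minus strand for Oscar, and at chr17:25133141-25133440, plus strand for Clcn7 (1 of 2 starts listed).
Ctsk: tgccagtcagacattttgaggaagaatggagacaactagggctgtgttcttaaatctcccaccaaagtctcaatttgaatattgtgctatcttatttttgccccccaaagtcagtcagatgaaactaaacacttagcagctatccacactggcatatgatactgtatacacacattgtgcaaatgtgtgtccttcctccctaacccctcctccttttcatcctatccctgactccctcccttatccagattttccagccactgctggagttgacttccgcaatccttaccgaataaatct
Acp5: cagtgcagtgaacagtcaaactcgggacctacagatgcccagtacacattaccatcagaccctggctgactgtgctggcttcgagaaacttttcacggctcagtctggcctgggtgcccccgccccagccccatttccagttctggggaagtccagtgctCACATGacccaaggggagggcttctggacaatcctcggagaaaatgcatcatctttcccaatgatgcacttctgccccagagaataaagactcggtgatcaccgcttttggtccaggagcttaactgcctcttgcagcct
Oscar: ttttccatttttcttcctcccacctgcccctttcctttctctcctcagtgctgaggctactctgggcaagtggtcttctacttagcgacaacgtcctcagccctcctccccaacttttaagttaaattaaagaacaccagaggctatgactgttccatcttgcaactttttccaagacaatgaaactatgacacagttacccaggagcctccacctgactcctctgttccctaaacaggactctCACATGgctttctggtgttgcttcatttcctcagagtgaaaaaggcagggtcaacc
Clcn7: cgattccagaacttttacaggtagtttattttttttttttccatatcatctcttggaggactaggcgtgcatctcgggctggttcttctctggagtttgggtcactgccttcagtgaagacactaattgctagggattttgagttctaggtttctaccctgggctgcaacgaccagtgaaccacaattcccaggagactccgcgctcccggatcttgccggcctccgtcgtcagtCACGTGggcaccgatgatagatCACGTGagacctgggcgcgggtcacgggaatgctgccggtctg
The match began 90 bases before the start in Acp5 and 6 bases before it in Oscar, and in Clcn7 there was one 15 bases before the start and one 7 bases after it. Ctsk held neither run of letters in this window. CATGTG was in 3 of the 34 stretches (8.82%; Acp5, Oscar and, at the start not printed, Clcn7) and in 14.2% of all 32851, and CACGTG was in 1 of 34 (2.94%) and in 7.15% of all, both lower shares than over all promoters. TGANTCA, the letters bound by Fos and Jun family factors, was in 4 of 34 (Atp6v0a1, Snx10, Tfe3 and Trem2), 11.8% against 7.81% of all. GGAAA, the core bound by Nfat factors, was in 58.8% of the 34 stretches and 61.3% of all.

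The first comparison, of Hyp with normal over both sexes, asks whether the osteoclast genes of the shaft go with the mutation. None of the 33 genes passed an adjusted p of 0.05 in limma (Benjamini-Hochberg over all probe sets), against 2.38% of all probe sets tested, and the smallest adjusted p was 0.0599, for Oscar. At an unadjusted p of 0.05, 8 genes were lower in Hyp (background 8.73% lower) and 1 was higher (background 11.5% higher), or 27.3% of the members against 20.2% of all genes in either direction. The estimates leaned down: 25 of 33 log2 fold changes were negative (75.8%, against 50.4% of all genes and 47.6% of probe sets), and their median was -0.10 against 0.00 for all genes (-0.002). Between pairs, 13 of 33 genes (39.4%) were lower in Hyp in 8 or more of 10 pairs, which 11.4% of all probe sets were, and 0 were higher in as many, which 13.3% were. The genes share arrays and correlate across them, so these counts are not 33 separate observations. Their list was also chosen with earlier results of these data known.

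**Figure D1:**
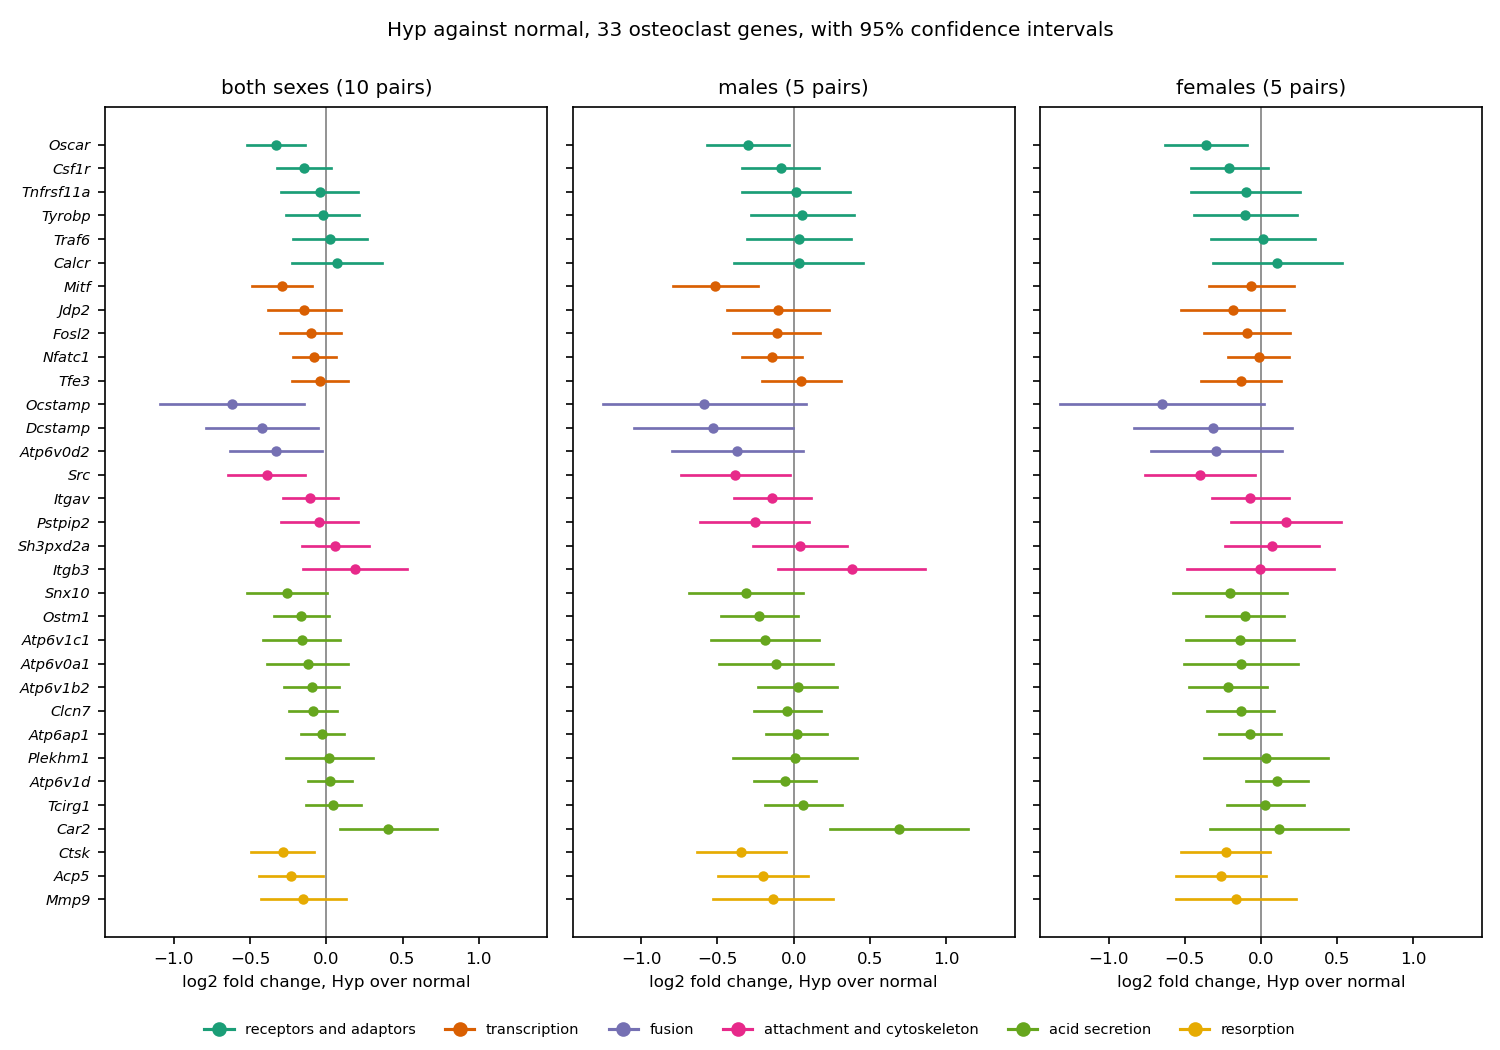
Log2 fold change of Hyp over normal (horizontal axis, on log2 of the signal plus 16) with its 95% confidence interval, for 33 genes grouped and coloured by role, over both sexes, in males and in females. The 3 fusion genes and the 3 resorption genes lie left of 0 in each panel, Car2 lies furthest right over both sexes, and no gene passed the adjusted threshold in any panel.

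Among receptors and adaptors, 4 of 6 measured genes had negative estimates over both sexes and 1, Oscar, had an unadjusted p under 0.05. Oscar is a collagen-binding immunoreceptor that signals through an Fc receptor chain. Its signals in series 1 to 5 were 390, 418, 402, 417 and 396 in normal males and 411, 314, 336, 321 and 260 in Hyp males. Among females they were 405, 427, 546, 527 and 545 in normal and 355, 318, 407, 363 and 443 in Hyp arrays. Hyp was lower in 9 of 10 pairs, with series 1 males the exception, and the groups overlapped in each sex. The log2 fold change was -0.33 ± 0.09 (SE, n = 10 pairs; limma adjusted p = 0.0599), close to even between the sexes (-0.30 in males, -0.36 in females), and the second Oscar probe set gave -0.40.

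The other receptors gave estimates near 0. Tnfrsf11a, the receptor for RANK ligand, stood at -0.04 ± 0.12 (SE), its adaptor Traf6 at 0.02 ± 0.11, and Tyrobp, the adaptor of Trem2, at -0.02 ± 0.11. Csf1r, the receptor for macrophage colony-stimulating factor, gave -0.15 ± 0.08 (limma adjusted p = 0.351) with its brightest probe set, and its dimmest probe set gave -0.39 ± 0.11 (adjusted p = 0.0719). Without series 2 the brightest gave -0.07. Calcr, the calcitonin receptor of mature osteoclasts, gave 0.07 ± 0.14, with signals between 75.8 and 252.4 over 20 arrays.

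All 5 transcription factor genes had negative estimates, and 1, Mitf, had an unadjusted p under 0.05. The signals of Mitf in males were 722, 516, 653, 580 and 608 in normal and 405, 498, 404, 373 and 448 in Hyp arrays of series 1 to 5. The female values were 669, 634, 600, 693 and 453 in normal and 526, 614, 520, 623 and 606 in Hyp arrays. In males every Hyp array lay below every normal one, the single case among the 33 genes in either sex. Of all probe sets, 0.951% did so in males, 1.58% lay wholly higher in males, and 1.14% and 0.689% lay wholly lower and higher in females. In females the Mitf groups overlapped. Over both sexes the log2 fold change was -0.29 ± 0.09 (SE, 9 of 10 pairs lower; limma adjusted p = 0.0984). It was -0.52 ± 0.13 in males (adjusted p = 0.0918) and -0.07 ± 0.13 in females (adjusted p = 0.913). The difference between the sexes, 0.45 ± 0.19, had an unadjusted p of 0.0278 and an adjusted p of 0.751, and the second, dimmer Mitf probe set gave 0.09 over both sexes. The mean of both Mitf probe sets gave -0.10.

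Nfatc1, the master factor of osteoclast formation, gave -0.08 ± 0.07 (SE; limma adjusted p = 0.534), and its 5 probe sets ranged from -0.23 to 0.04. Fosl2 and Jdp2, which bind as partners of Fos and Jun proteins, gave -0.10 ± 0.09 and -0.14 ± 0.11. Tfe3 gave -0.04 ± 0.09 and was called present on 9 of 20 arrays. Without series 2 the estimate of Jdp2 was -0.01.

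The 3 fusion genes had the lowest median estimate of the roles, -0.42, and each had an unadjusted p under 0.05, but none passed after adjustment. Ocstamp and Dcstamp are membrane proteins needed for precursors to fuse. Signals of Ocstamp were 363, 524, 161, 528 and 390 in normal and 306, 107, 265, 365 and 231 in Hyp males. Female arrays gave 344, 401, 366, 524 and 326 in normal and 231, 121, 370, 267 and 286 in Hyp arrays. Both Hyp arrays of series 2 and the normal male array of series 3 were the lowest and were called absent, and the groups overlapped in both sexes. The log2 fold change of Ocstamp was -0.62 ± 0.22 (SE, 8 of 10 pairs lower; limma adjusted p = 0.134).

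Dcstamp followed the same arrays. Its signals were 565, 886, 395, 612 and 658 in normal and 598, 193, 433, 547 and 437 in Hyp males, and 677, 542, 770, 1008 and 617 in normal and 504, 444, 627, 722 and 566 in Hyp females. The Hyp male of series 2 stood far below the other 19 arrays, the female pairs were lower in Hyp 5 of 5 times, and the groups overlapped. Over both sexes the log2 fold change was -0.42 ± 0.17 (SE; limma adjusted p = 0.185). Atp6v0d2, a subunit of the proton pump that also takes part in fusion, gave -0.33 ± 0.14 (adjusted p = 0.204), and its second probe set gave -0.42 ± 0.15 (adjusted p = 0.14). Without series 2 the estimates of Dcstamp, Ocstamp and Atp6v0d2 were -0.23, -0.31 and -0.15.

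**Figure D2:**
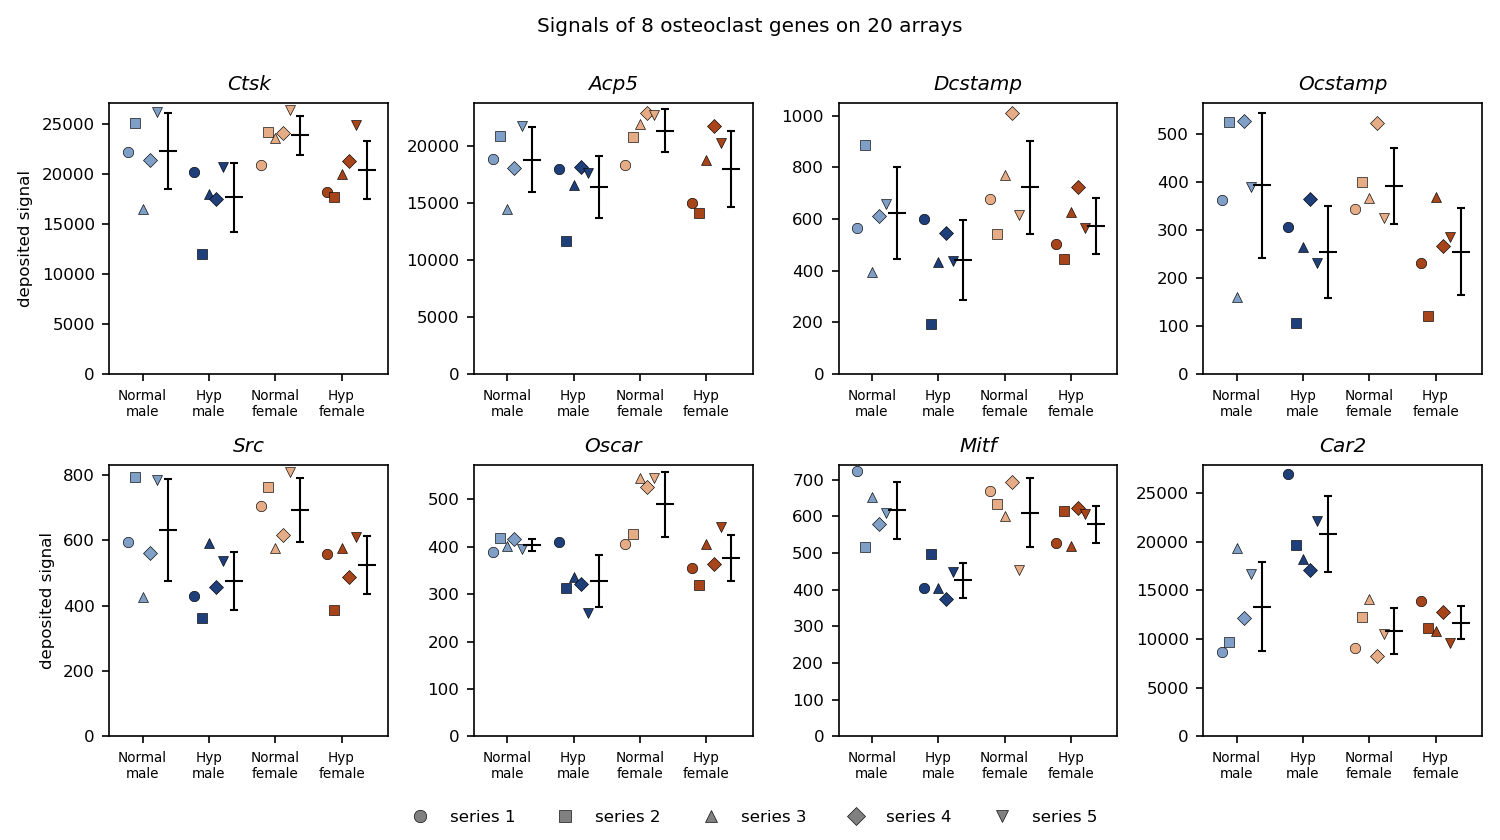
Deposited signal (vertical axis, arbitrary fluorescence units on a linear scale from 0) of 8 genes on the 20 arrays, by group, with the series as the marker shape and black bars for the group mean ± SD (n = 5). The square of the Hyp male group (series 2) is the lowest Hyp male value for Ctsk, Acp5, Dcstamp, Ocstamp and Src, and Mitf is the one panel in which the male groups do not overlap.

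Among the genes of attachment and the cytoskeleton, 3 of 5 estimates were negative. Src, the tyrosine kinase needed for the ruffled border, had signals of 594, 793, 426, 561 and 786 in normal and 430, 363, 590, 458 and 535 in Hyp males. Signals in females were 703, 762, 576, 615 and 808 in normal and 557, 385, 577, 489 and 610 in Hyp arrays. The normal male and Hyp male of series 3 stood in the opposite order to the other male pairs, and the groups overlapped. The log2 fold change was -0.39 ± 0.12 (SE, 8 of 10 pairs lower; limma adjusted p = 0.0878). It was -0.23 without series 2 and -0.55 (adjusted p = 0.0231) without series 3. The second Src probe set gave -0.16.

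Itgav and Itgb3 encode the chains of the integrin with which osteoclasts hold to bone. The brightest probe set of Itgav gave -0.10 ± 0.08 (SE; limma adjusted p = 0.525). A second, dimmer one was the only 1 of the 62 probe sets that passed (background 1.3% lower), and it is singled out here after its values were seen. Its signals were 539, 697, 564, 770 and 763 in normal and 333, 222, 583, 449 and 423 in Hyp males. In females they were 566, 556, 774, 1026 and 529 in normal and 426, 330, 576, 454 and 379 in Hyp arrays. Hyp was lower in 9 of 10 pairs, and the groups overlapped through the Hyp arrays of series 3. This probe set fell, with a log2 fold change of -0.69 ± 0.13 (SE; limma adjusted p = 0.0152), and the call was lost without series 1 (adjusted p = 0.0585), 2 (0.0938), 4 (0.12) or 5 (0.0537). With the actin ratio as a covariate the fold was as large (-0.73 ± 0.23 SE) and the adjusted p was 0.25. Where these probe sets lie on the transcript was not looked up.

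Itgb3 gave 0.19 ± 0.16 (SE) with its brightest probe set and -0.52 ± 0.23 with the dimmer one (limma adjusted p = 0.549 and 0.227). Sh3pxd2a, the podosome scaffold known as Tks5, gave 0.06 ± 0.10. Pstpip2, a regulator of the membrane and actin in macrophages and osteoclasts, gave -0.05 ± 0.12 and had the second smallest p of the 33 genes between the sexes, 0.39 ± 0.12 higher in females (adjusted p = 0.174).

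Of the 11 genes of acid secretion, 7 had negative estimates, 1 had an unadjusted p under 0.05, and their median was -0.09. That gene, Car2, was also the only one of the 33 with an unadjusted p under 0.05 upward. Carbonic anhydrase 2, its product, supplies protons to the pump in osteoclasts and is also abundant in red cell precursors. Signals of Car2 in males were 8693, 9682, 19325, 12178 and 16720 in normal and 26980, 19670, 18214, 17101 and 22140 in Hyp arrays. In females they were 9128, 12260, 14076, 8226 and 10570 in normal and 13890, 11187, 10870, 12804 and 9622 in Hyp arrays. Hyp males ranged highest and overlapped normal males through the normal array of series 3, and the females overlapped widely. The log2 fold change was 0.41 ± 0.15 over both sexes (SE, 6 of 10 pairs higher; limma adjusted p = 0.144), 0.69 ± 0.21 in males (adjusted p = 0.12) and 0.12 ± 0.21 in females (adjusted p = 0.898), and the interaction was -0.57 ± 0.30 (adjusted p = 0.756). Without series 1 it was 0.23.

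Red cell markers moved with Car2. All 7 measured genes of the erythroid list had positive estimates (median 0.48), 6 with an unadjusted p under 0.05 and 0 past the adjusted threshold. Of all genes, 10.7% were higher at that unadjusted p. In males the median of the list was 0.895, with 7 genes under an unadjusted p of 0.05. In females it was 0.094, with 0 such genes and 2 negative estimates. The summed signal of the list ran from 12107 to 33862 in normal males, 30603 to 56477 in Hyp males, 13049 to 24380 in normal females and 15693 to 23061 in Hyp females. Over the 10 pairs the difference of Car2 followed that of the mean of this list with a Pearson r of 0.973 and a Spearman rho of 0.976, and with an r of 0.948 without the 2 pairs farthest out (series 1 and 2 males). These correlations are between genes read from the same RNA on each array, and the part of red cell precursors in the Car2 result was not tested.

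No gene of the proton pump passed. Its 7 subunit genes on the list had a median of -0.10, with Atp6v0d2 the lowest and Tcirg1, the osteoclast-enriched subunit of the membrane sector, the highest at 0.05 ± 0.08 (SE). Atp6v0a1, another membrane subunit, gave -0.12 ± 0.12, and Atp6v1b2, Atp6v1c1 and Atp6v1d of the catalytic sector gave -0.10 ± 0.09, -0.16 ± 0.12 and 0.03 ± 0.07. The accessory subunit Atp6ap1 gave -0.03 ± 0.07. For 4 of these genes the probe sets differed in sign. They ranged from -0.12 to 0.17 for Atp6v0a1, -0.13 to 0.12 for Atp6v1b2, -0.21 to 0.03 for Atp6v1c1 and -0.16 to 0.03 for Atp6v1d.

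Clcn7 and Ostm1 form the chloride and proton exchanger of the ruffled border. They gave -0.09 ± 0.07 and -0.17 ± 0.08 (SE; limma adjusted p = 0.539 and 0.289), and the second Clcn7 probe set gave -0.33 ± 0.11 (adjusted p = 0.105). Snx10, a sorting nexin whose loss causes osteopetrosis, gave -0.26 ± 0.12 (adjusted p = 0.258), while its dimmer probe set gave 0.32; without series 2 the former was -0.15. Plekhm1, a lysosomal trafficking adaptor, gave 0.02 ± 0.13.

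The 3 resorption genes all had negative estimates, 2 of them with an unadjusted p under 0.05. Ctsk, cathepsin K, the main collagen-degrading protease of osteoclasts, had signals of 22240, 25151, 16526, 21412 and 26230 in normal and 20169, 12024, 18001, 17464 and 20731 in Hyp males. In females they were 20930, 24250, 23590, 24142 and 26409 in normal and 18167, 17668, 20044, 21325 and 24879 in Hyp arrays. Hyp was lower in 9 of 10 pairs, with series 3 males the exception, and the groups overlapped. The log2 fold change was -0.29 ± 0.10 (SE; limma adjusted p = 0.118), a ratio of 0.819, and the authors' deposited table gave a Hyp to normal ratio of 0.825.

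Acp5, the tartrate-resistant acid phosphatase used to stain osteoclasts, had signals of 18868, 20925, 14488, 18064 and 21767 in normal and 18042, 11646, 16635, 18139 and 17640 in Hyp males. In females they were 18358, 20850, 21952, 22907 and 22761 in normal and 15012, 14173, 18774, 21817 and 20302 in Hyp arrays. The Hyp male of series 2 was the lowest of all 20 arrays, all 5 female pairs were lower in Hyp, and the groups overlapped. The log2 fold change was -0.23 ± 0.10 (SE, 8 of 10 pairs lower; limma adjusted p = 0.201). Without series 2 the estimates of Ctsk and Acp5 were -0.17 and -0.11. Mmp9, a gelatinase of osteoclasts and neutrophils, gave -0.15 ± 0.13, and its second probe set gave -0.36. Without series 2 the first was -0.02, and without the normal male array of series 2 alone it was -0.06.

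Within each sex 0 of 33 genes passed, as 0.0995% of probe sets did in males and 0.00368% in females. In males 21 estimates were negative and the median was -0.11 (6 genes with an unadjusted p under 0.05); the backgrounds were 48.4% negative and 17.9%. In females 25 were negative and the median was also -0.11 (2 genes), against backgrounds of 46.6% and 10.1%. The interaction of genotype and sex gave 0 calls among the 33 genes (background 0.00368%) and 1 unadjusted p under 0.05 (background 6.62%), that of Mitf. Females against males gave 0 calls among them (background 0.133%), 4 unadjusted p under 0.05 upward (background 6.01%) and 1 downward (background 7.93%), and the lowest adjusted p was that of Car2, -0.54 in females (adjusted p = 0.146).

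The 10 pairs were not alike. In the series 2 males, 28 of 33 genes were lower in Hyp, with a median log2 difference of -0.46, and Ocstamp (-2.13) and Ctsk (-1.06) among them. In the series 3 males 13 were lower, the median was 0.11, and Ocstamp was the highest at 0.67. The shares lower were 84.8% of the 33 and 51.9% of all genes in the series 2 males. In the series 3 males they were 39.4% and 45.8%. The other 8 pairs had medians from -0.29 (series 5 males) to 0.06 (series 1 males). Ocstamp was the lowest gene in 5 of the 10 pairs. Without series 2 the median of the 33 estimates was -0.06 and 24 were negative. Series 1 and 2 alone gave a median of -0.16 and series 3 to 5 alone gave -0.08, with 25 and 26 of 33 negative.

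**Figure D3:**
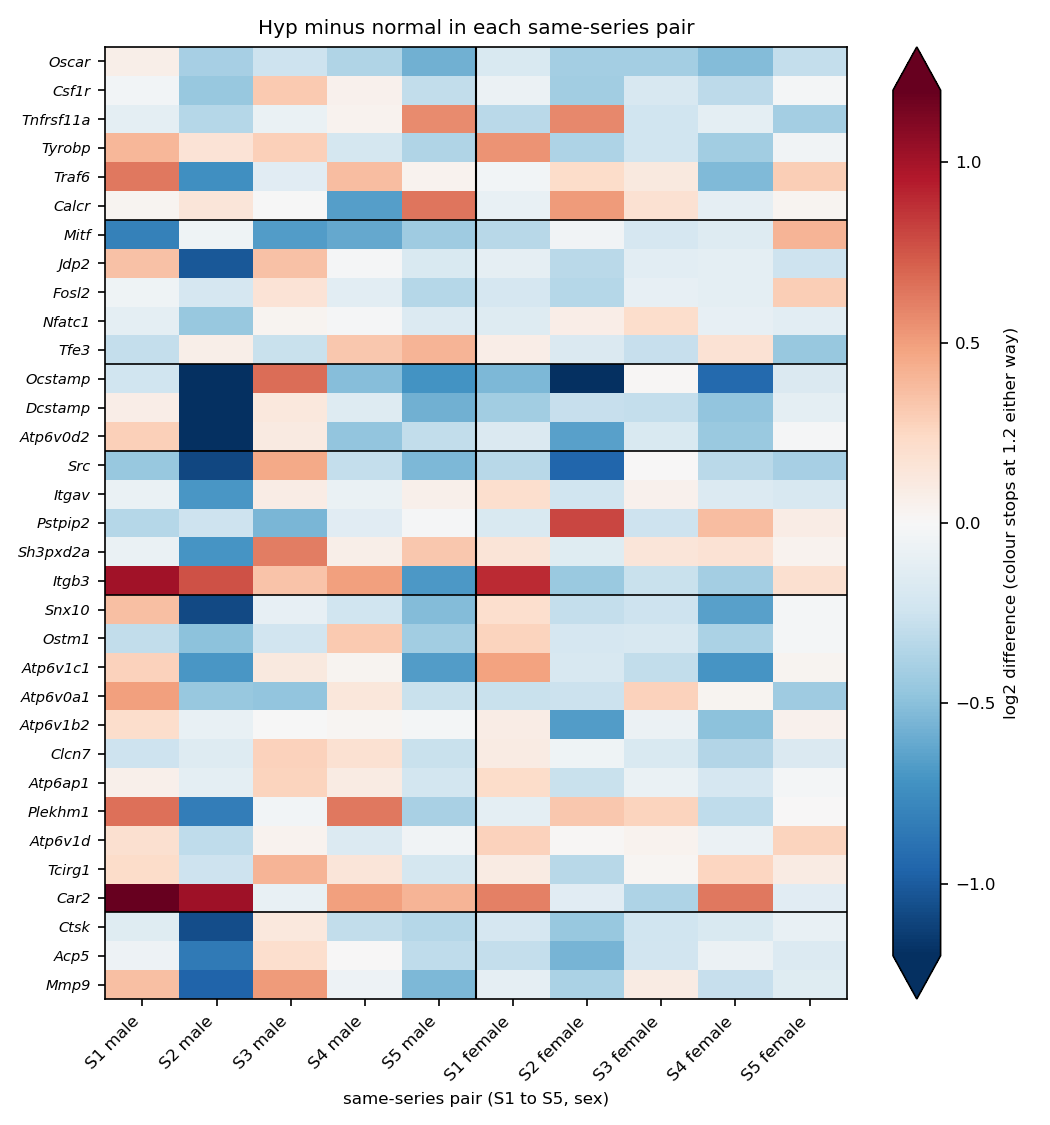
Log2 difference of Hyp minus normal (blue for lower in Hyp, red for higher) for 33 genes, grouped by role between the lines, in the 5 male and the 5 female pairs. Series 2 of the males is blue in 28 of 33 genes and series 3 of the males in 13, where 51.9% and 45.8% of all genes were lower. Car2 is red in both of the first male pairs.

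How far the genes moved together was read from deviations of each array from its group and series means, which use neither the genotype nor the series difference. Over 20 arrays the median Pearson r of the 528 pairs of the 33 genes was 0.284 and 379 were positive, while the mean r was 0.242 among the 33 genes and 0.0026 over all gene pairs. The other 12397 genes had a median of 0.018 for their mean r with the 33. Their 95th percentile was 0.307, above the mean of 0.242 among the 33, so other genes also moved with the set. Without series 2 (16 arrays) the median was 0.214 with 360 positive pairs. It was 0.382 in the 10 normal arrays and 0.133 in the 10 Hyp arrays, where 366 and 298 of the pairs were positive; with 4 degrees of freedom in each, that gap was not tested. These values have 12 degrees of freedom over 20 arrays, compare genes that share the pooled RNA and scaling of each array, and carry no p.

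A core moved with Ctsk. Of the other 32 genes, 10 had an r of 0.7 or more with it (31.2%), as did 304 of 12397 other genes (2.45%). They were Acp5 (0.944), Atp6v0d2 (0.899), Dcstamp (0.897), Ocstamp (0.848), Sh3pxd2a (0.832), Jdp2 (0.825), Mmp9 (0.818), Csf1r (0.799), Snx10 (0.756) and Itgav (0.7). All 3 fusion genes and both other resorption genes are in this core, with 1 of the 11 acid secretion genes beside it. Without series 2 Itgav dropped to 0.283, Sh3pxd2a to 0.517 and Snx10 to 0.574, while Acp5 kept 0.914, Dcstamp 0.860 and Csf1r 0.819. Another 10 genes, among them Src (0.657), Tcirg1 (0.563) and Nfatc1 (0.463), lay between 0.4 and 0.7, and Nfatc1 stood at -0.024 without series 2.

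**Figure D4:**
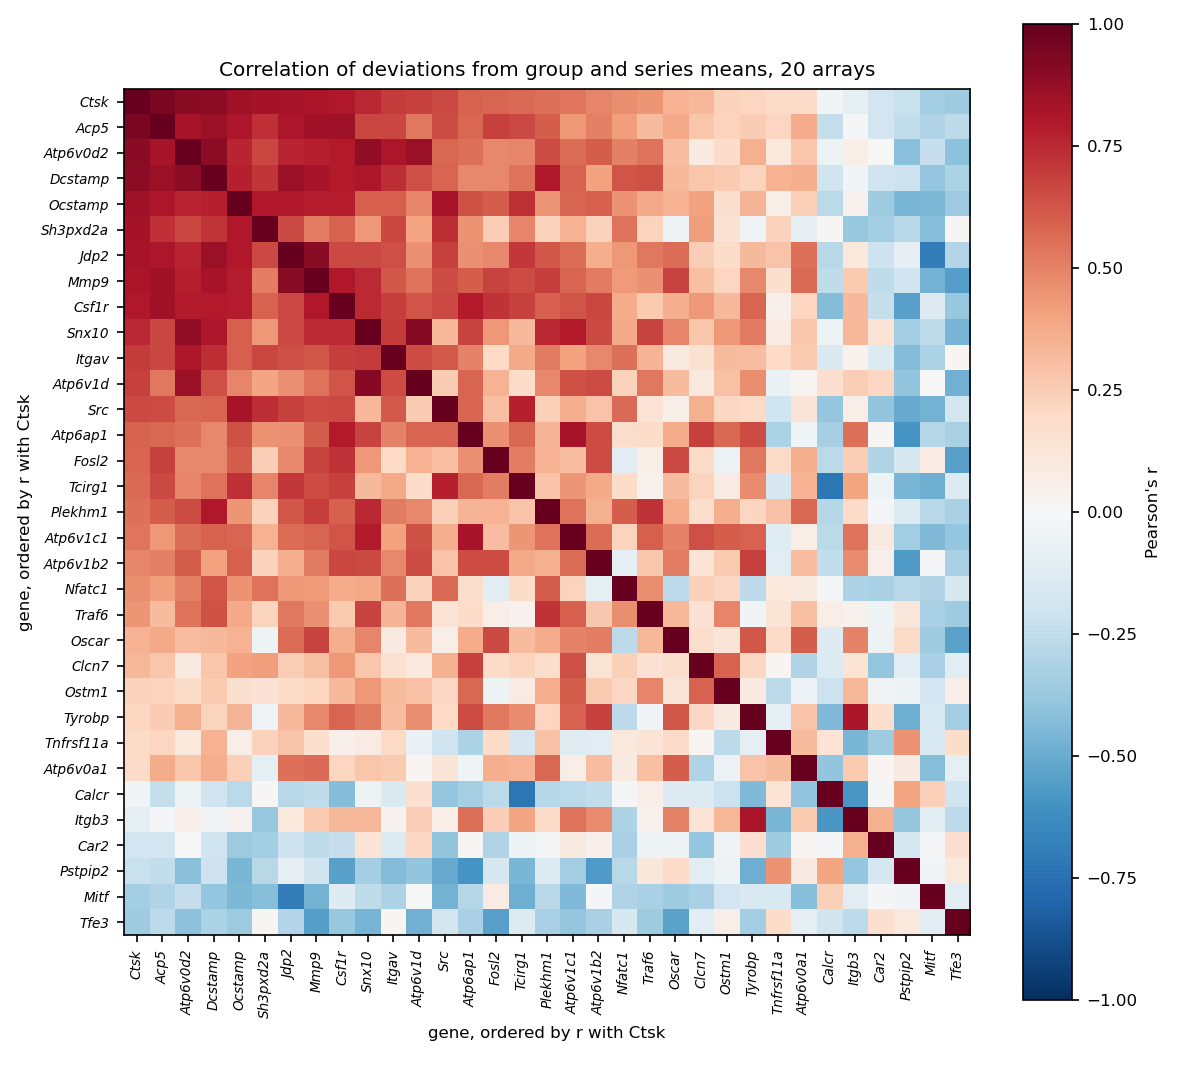
Pearson's r (colour) between deviations from group and series means for each pair of the 33 genes over 20 arrays, ordered on both axes by r with Ctsk. The block at the upper left holds the genes with an r of 0.7 or more with Ctsk, and the blue margin holds 6 genes with a negative r.

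Over the 10 pair differences 12 genes had an r of 0.7 or more with Ctsk, the 10 above with Src (0.824) and Tcirg1 (0.763). Without the 2 pairs farthest from the median of Ctsk, 3 of the 12 did: Ocstamp, Atp6v0d2 and Tcirg1. Between Ctsk and Acp5 r was 0.909 and rho was 0.770, and without the 2 pairs farthest from the median of Ctsk (series 2 and 3 males) r was 0.671. Atp6v0d2 gave 0.928, 0.867 and 0.759 in the same order, and Ocstamp 0.894, 0.758 and 0.732. Dcstamp gave 0.923 and 0.709 but 0.377 without those 2 pairs, and Sh3pxd2a gave 0.874 and 0.455 but 0.099. Without those pairs Itgav went from 0.803 to 0.069, Jdp2 from 0.898 to 0.424 and Snx10 from 0.728 to 0.432. Leaving out the extreme pairs of Ctsk also narrows its range, so these drops cannot show what the likeness to Ctsk rests on. In the array deviations without series 2, Dcstamp (0.860) and Jdp2 (0.712) kept an r of 0.7 or more with Ctsk. The 5 genes of the array with the highest r to Ctsk over the pairs were Fndc3b (0.935), Ctsb (0.935), the lysosomal protease cathepsin B, Asah1 (0.933), the lysosomal acid ceramidase, Snx18 (0.929), a sorting nexin, and Atp6v0d2.

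A negative r with Ctsk over the 20 arrays was found for 6 genes: Tfe3 (-0.359), Mitf (-0.336), Pstpip2 (-0.226), Car2 (-0.191), Itgb3 (-0.096) and Calcr (-0.026). Car2 had instead a mean r of 0.853 with the 7 erythroid genes (0.722 to 0.951 per gene). Itgb3, which platelets also use, had a mean r of 0.814 with the 6 megakaryocyte genes and 0.790 with the 8 neutrophil genes. Tyrobp, an adaptor of many myeloid cells, had a mean r of 0.675 with the neutrophil list and 0.536 with the 13 macrophage genes, against 0.214 with Ctsk. Without series 2 these values were 0.898, 0.869, 0.736, 0.587 and 0.516 in the same order, and Tyrobp then had an r of 0.582 with Ctsk.

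**Figure D5:**
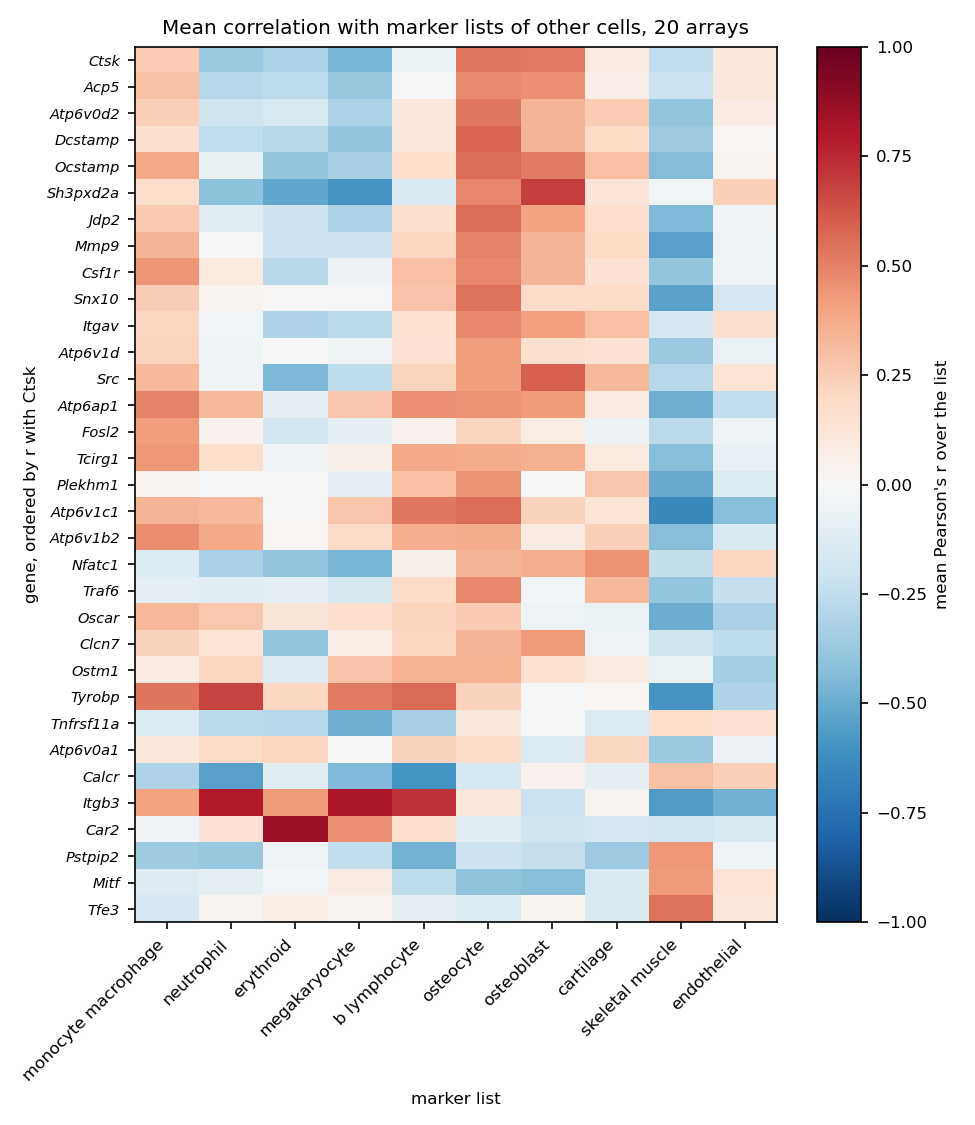
Mean Pearson's r (colour) of each of the 33 genes (rows, ordered by r with Ctsk) with the genes of 10 marker lists of other cells (columns), from deviations over 20 arrays. Car2 is darkest with the erythroid list (0.853) and Itgb3 with the megakaryocyte list (0.814). Ctsk had a mean r of 0.53 with the osteocyte, 0.517 with the osteoblast and 0.256 with the macrophage list. In the same order these were 0.246, 0.257 and 0.429 without series 2. They were 0.691, 0.391 and 0.581 in the 10 normal arrays and 0.27, 0.09 and -0.36 in the 10 Hyp arrays (subsets not drawn).

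Markers of other cells differed between the genotypes too, and their part in the results above was not tested. The macrophage list, the lineage nearest to osteoclasts, had 0 of 13 measured genes called and a median of 0.06, with Siglec1 and Marco under the detection filter; its summed signal ran from 14273 to 23603 over normal and 12723 to 21959 over Hyp arrays. The megakaryocyte list had 1 of 6 called (Gp5, 0.70 ± 0.17 SE, limma adjusted p = 0.0416) and a median of 0.64, with summed signals from 5835 to 16925 in normal and 7911 to 30662 in Hyp arrays. The endothelial list had 3 of 7 called upward, the osteocyte list, which holds Phex, 5 of 7 downward and the osteoblast list 1 of 6 downward, where 127 of all 12430 genes were called upward and 176 downward. The neutrophil, B lymphocyte, cartilage and skeletal muscle lists had 0 calls, with medians of -0.01, -0.31, 0.05 and 0.04. Over the 10 pairs Ctsk followed the mean of the osteocyte list with an r of 0.788 and a rho of 0.37, and with an r of 0.216 without series 2 males and series 1 females. With the macrophage list r was 0.173 and rho 0.333, and r was -0.326 without series 3 males and series 2 females.

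Of the other genes of the pathway, 59 of 67 were measured and 2 were called, a share near that over the whole array, where 303 of 12430 genes were. Map2k6, a kinase that activates p38 in RANK signalling, fell in each of the 10 pairs, with a log2 fold change of -0.47 ± 0.07 (SE, limma adjusted p = 0.00579). The call was lost without series 2 (adjusted p = 0.0506) or 4 (0.0653). It was also lost in 3 of 11 other fits, among them that with the actin ratio added to the model (0.215), with a highest adjusted p of 0.248. The fold itself stayed between -0.50 and -0.43 under the alternatives tried. Tec, a kinase downstream of the immunoreceptors, rose by 0.39 ± 0.09 in 9 of 10 pairs (adjusted p = 0.0435), a call lost in 20 of 25 fits with arrays left out. Of 13 other pump subunits 0 were called and 10 were negative. The lowest p was that of Atp6v1a, the catalytic subunit, at -0.33 ± 0.09 (adjusted p = 0.0599, 9 of 10 pairs lower). Of 11 transcriptional regulators of the osteoclast fate 0 were called (median 0.12), and of 5 cytokines 0 were called. Among these, Tnfsf11, which encodes RANK ligand, gave -0.09 ± 0.14, and its decoy receptor Tnfrsf11b gave -0.24 ± 0.18.

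RNA quality differed with genotype on 1 of 2 measures: the actin 3′/5′ signal ratio rose in 9 of 10 pairs, with a mean log2 difference of 0.14 ± 0.09 (SD, exact sign-flip p = 0.00391, 2-sided). The Gapdh ratio rose in 8 of 10 pairs, by 0.06 ± 0.17 on average (exact sign-flip p = 0.258). With the actin ratio as a covariate the median of the 33 genes was -0.10 and 5 had an unadjusted p under 0.05, with larger standard errors. Ctsk then gave -0.46 ± 0.17 (SE), Acp5 -0.40 ± 0.17, Src -0.47 ± 0.21, Mitf -0.36 ± 0.16 and Itgb3 0.62 ± 0.25. These are the 5 genes, picked by that p, and their folds were larger than without the covariate. Other genes moved either way. Oscar shrank from -0.33 to -0.25 ± 0.16 (limma adjusted p = 0.551) and Atp6v1c1 from -0.16 to -0.02, while Dcstamp went from -0.42 to -0.57. Of the 33 estimates 23 were negative, against 25 without the covariate.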

How the data were processed

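The deposited signals are fluorescence intensity values on a linear scale, per the file headers. GCOS made them, per the submitters' processing notes, with version and settings not given in the sources used here. Every array had a mean of 500.0 after 2.0% of its values were trimmed from both tails. Detection calls and the ratio of Hyp to normal means are the authors' deposited values; the signals in both deposited tables were identical for 45101 probe sets. Names come from the array's gene table (34958 probe sets with 1 symbol, 932 with several, 9211 with none), and 12 of 184 symbols in the lists had no probe set.

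The 64 control probe sets and those called present on fewer than 5 arrays were left out. Signals, with a pseudocount of 16 added, were taken to log2 and fitted in limma 3.58.1 under R 4.3.3 (lmFit, eBayes), with a term per group (4), the series number (5) as block, 12 residual and 3.44 prior degrees of freedom, and 2-sided p adjusted by Benjamini-Hochberg over 27141 probe sets, threshold 0.05. The block follows the labels, which tie a number to littermates and shared processing; 30 same-numbered pairs of arrays had a median r of 0.215 across genes, others -0.070. Correlations, promoters and figures used Python 3.11.15 with NumPy 2.4.6, pandas 2.3.3, SciPy 1.17.1 and matplotlib 3.10.9. Arrays have no count depth, and their number limits precision. Per the labels the 20 pools are independent samples, so p measures the spread between pools, not between single mice. Every per-sample column was mapped to a sample.

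The members and lists were chosen with earlier results of these data known. Values in every array are given for Acp5, Ctsk, Oscar, any gene called and the 8 genes with the smallest p over both sexes; from other lists, at most 4 genes with the smallest p are named, except the cytokines and genes named as not called. On simulated data for Hyp against normal over both sexes (27141 probe sets), 52 of 100 probe sets changed by 0.5 on the log2 scale and 87 of 100 changed by 1 were called. Alternatives were other pseudocounts (1, 64), no filter, presence on 10 arrays, quantile normalization, array weights, the actin ratio as a covariate, the mean of probe sets, no block, series 1 and 2 or 3 to 5 alone, each array or series left out, and, added after seeing the data, the authors' form of analysis of variance on linear signals and the correlations without series 2 or within 1 genotype.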

Additional observations from a re-analysis of the deposited data

Results flagged for a closer look

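Of 32 groups of 5 arrays tested for the 8 genes given in full, 1 had a sample far from the others: the Acp5 signal of the Hyp male array of series 2 was 11646.5, and the next lowest Hyp male array had 16634.9. The gap was 0.768 of the group's range, over the critical value of 0.71 for 5 samples. Chance gives such a gap in about 1 of 20 groups. The same array had the lowest Hyp male signal of Ctsk, Dcstamp, Ocstamp and Src.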

How the results depend on the processing

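Over both sexes, where 0 of the 33 genes passed in the reported fit, 1 passed (Oscar) with presence on 10 or more arrays, with quantile normalization and with array weights. Leaving out series or single arrays gave from 0 to 4 genes: Ocstamp and Src without series 3 (2 genes), Oscar without the Hyp male array of series 1 (1 gene), and Ctsk, Ocstamp, Oscar and Src without the normal male array of series 3 (4 genes). In the other 4 contrasts the count was 0 under all 37 alternatives. Without the replicate block, 0 of the 33 genes passed, as with it, while the Tec call was lost (limma adjusted p = 0.0795). All 4 groups are equally present in each series, so leaving out the block can change an SE and a p but no estimate. The median of -0.102 in that fit was thus fixed by the design. The median of the 33 estimates ranged from -0.147 to -0.058 with series or arrays left out and from -0.161 to -0.079 otherwise. In 15 of 33 genes the sign changed under at least 1 of 36 alternatives, none with an estimate beyond 0.258. The fit without the block, 1 of the 36, could change no sign. Calls over all probe sets, 647 in the reported fit, varied more: 148 with no filter, 1431 with array weights, 1 with the actin covariate and 30 without series 2. The cause of these moves was not tested. The number of arrays limits what could be seen: the median SE was 0.115 over both sexes and 0.162 within one.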
